A study of Mus musculus with 4 samples.

Results

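The 4 Hox clusters of the mouse were described by the CpG methylation of 3661 cytosines, out of 1276684 cytosines measured in every liver of the series. A cytosine was a member when it had at least 10 reads in all 4 mice and lay in the body of a Hox gene of RefSeq, or within 2 kb of it, and these cytosines belonged to 2845 CpGs at 39 genes. Enhanced reduced representation bisulfite sequencing (ERRBS) cuts genomic DNA with restriction enzymes, MspI among them, which enriches CpG-rich fragments, and reads cytosines after bisulfite treatment, so that a methylated cytosine stays C and an unmethylated one is read as T. Whole livers came from 4 male mice of 6 to 8 weeks on a normal diet: Mixed-1 and Mixed-2 had a mixed strain background, and B6-1 and B6-2 were C57BL/6. Values of single mice are given in the order of these names, the Mixed pair first. No mouse carried a stated transgene or received a treatment. The composition of the mixed background was not defined mouse by mouse, the strains were kept at different institutions, and a whole liver holds hepatocytes together with other cells. The method does not separate 5-methylcytosine from 5-hydroxymethylcytosine.

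Hox genes encode homeodomain transcription factors that give cells their position along the body axis. They lie in 4 clusters that arose by duplication, and the order of the genes along a cluster follows the order of their expression from the anterior to the posterior of the embryo. Genes with the same number in different clusters are paralogues. In most adult cells outside their own domain, Hox genes are kept silent by Polycomb complexes, which place a repressive mark on histone H3, and the clusters are known as wide CpG-rich stretches with little DNA methylation. Expression and histone marks were not measured here.

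The Hoxa cluster on chromosome 6 held 1062 members at 11 genes, between positions 52155367 and 52260880 of mm10. The Hoxb cluster on chromosome 11 held 808 members at 10 genes, between 96194316 and 96368254. The Hoxc cluster on chromosome 15 held 687 members at 9 genes, between 102921131 and 103036856, and the Hoxd cluster on chromosome 2 held 1104 members at 9 genes, between 74668225 and 74765142. Every gene had data, with 25 to 452 members a gene. Transcripts of neighbouring Hox genes overlap, and 786 members (21.5%) counted for more than 1 gene. A feature (promoter, exon or intron) of another RefSeq gene held 1427 members (38.98%).

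The median coverage of the members was 45 and 50 reads in the Mixed mice and 69 and 67 in the B6 mice. The B6 libraries were deeper, as they were across the genome, where the mean coverage ranged from 44.2 to 63.7. Strain, housing and depth cannot be told apart in these mice. Sequenced PCR copies need not come from different molecules, so the intervals and limits for single cytosines given here cover counting error only.

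Methylation was low across the clusters. The mean over the 3661 members was 5.08% and 4.75% in the Mixed mice and 4.28% and 4.41% in the B6 mice, or 4.63% ± 0.360 (SD, n = 4). The mean over all common cytosines outside the mitochondrial genome was 28.5% ± 0.146 (SD, n = 4). Averaged over the mice, 2599 members (70.99%) were under 5%, 5 (0.137%) were over 50%, and 0 were over 80%, the range that held 23.1% of all common cytosines. In each of the 4 mice 3343 members (91.3%) stayed under 20%. No methylated read was seen in any mouse at 363 members, whose reads in the 4 mice added up to a median of 178, which allows a methylation level of up to 1.69%.

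Reference sequence (mm10, plus strand, 5′ to 3′) is given for windows that carry the contrasts described below, because the same clusters hold a start region with almost no methylation and short stretches with a partial level. Capitals mark the CpGs with at least 1 measured strand. The first window is the 250 bases upstream of Hoxa13, a posterior gene read from the minus strand, and was the lowest of the 7 Hox start regions with at least 8 members. The next windows hold 4 of the 7 stretches in which neighbouring members all exceeded 20% (the one at Hoxb3 only in part), a threshold chosen after the values were seen. The Hoxb3 window also holds 2 members under 20%, and the last holds a single cytosine in Hoxb7.

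Hoxa13 start, chr6:52260881-52261130: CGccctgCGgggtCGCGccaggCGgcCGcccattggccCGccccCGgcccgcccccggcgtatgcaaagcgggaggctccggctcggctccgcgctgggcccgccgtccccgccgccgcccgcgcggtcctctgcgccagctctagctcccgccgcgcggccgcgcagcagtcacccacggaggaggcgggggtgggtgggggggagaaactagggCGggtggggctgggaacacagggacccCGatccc
Between Hoxa7 and Hoxa6, chr6:52209425-52209661: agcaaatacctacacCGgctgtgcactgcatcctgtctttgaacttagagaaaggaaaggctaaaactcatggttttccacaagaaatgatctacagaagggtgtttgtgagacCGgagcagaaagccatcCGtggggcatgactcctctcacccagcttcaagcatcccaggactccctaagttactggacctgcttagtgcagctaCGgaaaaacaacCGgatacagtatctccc
Between Hoxa5 and Hoxa4, chr6:52199906-52200131: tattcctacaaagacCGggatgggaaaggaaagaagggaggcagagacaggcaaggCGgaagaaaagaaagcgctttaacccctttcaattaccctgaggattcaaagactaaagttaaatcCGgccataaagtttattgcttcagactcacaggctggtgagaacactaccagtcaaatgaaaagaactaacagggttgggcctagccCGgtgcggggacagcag
Hoxb3 coding exon, chr11:96344488-96344620: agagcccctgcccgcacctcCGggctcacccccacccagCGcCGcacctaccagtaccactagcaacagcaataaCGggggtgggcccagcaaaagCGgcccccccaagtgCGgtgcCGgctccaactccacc
Between Hoxb7 and Hoxb6, chr11:96291086-96291285: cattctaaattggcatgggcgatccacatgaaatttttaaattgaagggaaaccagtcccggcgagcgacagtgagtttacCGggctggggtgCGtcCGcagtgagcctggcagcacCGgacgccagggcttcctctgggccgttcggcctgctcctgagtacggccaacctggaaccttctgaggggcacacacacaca
Hoxb7 exon end, chr11:96287038-96287238: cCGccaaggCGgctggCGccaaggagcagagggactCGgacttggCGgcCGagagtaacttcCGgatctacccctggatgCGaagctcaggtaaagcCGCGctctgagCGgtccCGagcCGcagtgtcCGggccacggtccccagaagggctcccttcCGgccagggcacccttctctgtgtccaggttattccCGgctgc

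The Hoxa13 window had a GC content of 80% and 35 CpGs, 10 of them measured, and its 14 members were at 1.11% and 1.23% in the Mixed mice and 0.181% and 1.42% in the B6 mice. The highest of them reached 3.99% in the mean of the mice. The window between Hoxa7 and Hoxa6 had a GC content of 48.9% and only 5 CpGs, all measured, and its 6 members were at 23.4%, 34.2%, 26.8% and 26.3% in the same order of mice. The Hoxa13 window and the one between Hoxa7 and Hoxa6 thus differed in how densely CpGs lay. Other partly methylated windows held more CpGs: 8 in 133 bases at Hoxb3 and 12 in 200 bases between Hoxb7 and Hoxb6. The levels of the stretches are taken up again below.

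The first comparison asked whether the 4 clusters were methylated alike. They were not at the same level: Hoxb was the highest, followed by Hoxa, Hoxc and Hoxd, and this order held in each of the 4 mice. Hoxb was at 6.74% and 6.48% in the Mixed mice and 6.03% and 5.80% in the B6 mice (6.26% ± 0.424, SD, n = 4). Hoxa was at 5.79%, 5.09%, 4.78% and 5.004% (5.17% ± 0.435). Hoxc was at 4.52%, 3.79%, 3.52% and 3.63% (3.87% ± 0.448), and Hoxd at 3.55%, 3.75%, 3.01% and 3.30% (3.40% ± 0.322). The values of Hoxb lay above those of Hoxc and Hoxd in all mice with no overlap, whereas those of Hoxc and Hoxd overlapped between mice.

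Within a mouse, Hoxb exceeded Hoxd by 2.86 percentage points on average, from 2.50 to 3.19, and Hoxc by 2.40 points, from 2.17 to 2.69. Hoxa exceeded Hoxc by 1.302 points and Hoxd by 1.77 points, and lay below Hoxb by 1.09 points. With cytosines of a single Hox gene only, Hoxa minus Hoxc was 0.608 points, Hoxa minus Hoxb -2.14 and Hoxc minus Hoxd 0.904, and with at least 20 reads Hoxa minus Hoxb was -0.538. The smallest gap was that of Hoxc over Hoxd, at 0.465 points, from 0.0428 to 0.967, and was 0.298 without Mixed-1. All 6 pairs of clusters differed in the same direction in 4 of 4 mice, and each gave p = 0.13 in a two-sided exact permutation test of the within-mouse differences (adjusted p = 0.13 over the 6 pairs), the smallest p that 4 mice allow.

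**Figure D1:**
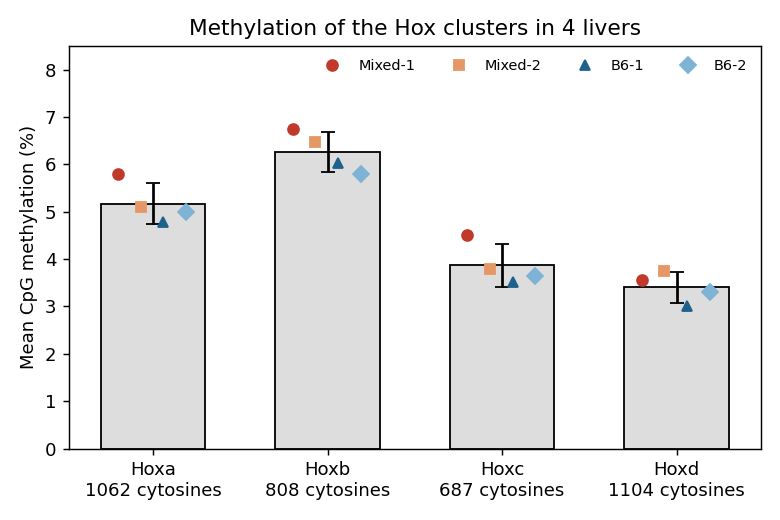
Mean CpG methylation (percent, y axis) of the members of each Hox cluster; bars are means over 4 mice with SD, and points are single mice. Hoxb lies highest at 6.26% and Hoxd lowest at 3.40%.

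The clusters also differed in CpG density, counted as CpGs in the 200 bp around a member, so the order was read again within density classes. Among members with 20 or more CpGs, Hoxa was at 2.83% ± 0.220, Hoxb at 2.99% ± 0.340, Hoxc at 2.20% ± 0.358 and Hoxd at 2.36% ± 0.225 (SD, n = 4 each). Hoxc was thus below Hoxd in this class, and the 4 clusters lay within 1 point of each other. Among members with 15 to 19 CpGs, the levels were 6.26% in Hoxa, 6.47% in Hoxb, 3.45% in Hoxc and 3.29% in Hoxd. Among those with 1 to 9 CpGs they were 8.86%, 10.1%, 6.84% and 7.16%. Hoxa and Hoxb were the higher pair in each class, and the order of Hoxc and Hoxd changed between classes.

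The second comparison followed the parts of a gene. Promoters, taken as 1000 bp on each side of a Hox transcription start, held 2151 members and had the lowest level, with 3.99% and 3.59% in the Mixed mice and 3.18% and 3.42% in the B6 mice (3.55% ± 0.339, SD, n = 4). Exons outside promoters, with 701 members, were at 6.99%, 6.85%, 5.92% and 6.12% (6.47% ± 0.529). Introns, with 519 members, were at 6.42%, 5.88%, 6.08% and 5.51% (5.97% ± 0.381), and the spacers next to the genes, with 290 members, at 6.22%, 6.26%, 5.29% and 5.65% (5.86% ± 0.471). Over the clusters together, promoters were below each of the other parts in all mice, with no overlap.

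The difference of promoters was -2.92 points from exons, -2.43 from introns and -2.31 from spacers, each in 4 of 4 mice (two-sided exact permutation p = 0.13, adjusted p = 0.19 over 6 pairs). With promoters taken upstream of the start only, promoter minus exon was -0.557 points. Exons, introns and spacers differed from each other by 0.116 to 0.614 points. The order of these parts turned when promoters were taken upstream of the start only or when curated transcripts alone were used, where exon minus intron was -1.25 and -0.484 points. A promoter, exon or intron of another RefSeq gene held 166 of the 290 spacer cytosines (57.2%), so that spacers were not free of other genes.

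The parts did not rank alike in every cluster. Intron members were the highest part in Hoxa, at 9.57% ± 0.832 (SD, n = 4), and in Hoxc, at 6.94% ± 0.553. In Hoxb the spacers at 9.61% ± 0.408 and the exons at 9.05% ± 0.567 were high and the introns were at 4.85% ± 0.656. In Hoxd all parts were between 2.93% in promoters and 5.09% in spacers. Hoxc spacers were at 2.77% ± 0.492, below the 3.505% ± 0.513 of Hoxc promoters, and all 79 of their members were under 20%. Whether the ranking of parts differed between clusters was not tested.

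First exons, which lie at the start sites, were compared with last exons, which hold the homeobox in most Hox genes. First exons were at 4.24% and 3.95% in the Mixed mice and 3.59% and 3.69% in the B6 mice, over 1474 members. Last exons were at 7.44%, 7.005%, 5.77% and 6.19%, over 494 members. The last exons were higher in every mouse and the ranges did not overlap, with a difference of -2.74 points for first minus last exons (from -3.21 to -2.19, exact permutation p = 0.13). The gap was widest in Hoxa, with 4.05% in first and 9.55% in last exons, and narrow in Hoxb, with 6.06% and 6.77%. Last exons also had fewer CpGs around a member, with a median of 16 against 22.

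The third comparison set the Hox clusters against other genes. The exons of other RefSeq genes were at 58.7% ± 0.213 (SD, n = 4), their introns at 65.9% ± 0.421 and their promoters at 4.10% ± 0.0416. These exons and introns left out the promoters of all genes other than Hox, whereas Hox exons and introns left out Hox promoters only. Cytosines at starts of other transcripts inside the clusters could thus stay in Hox exons and introns. The difference of Hox from other genes was -52.3 points in exons and -59.96 points in introns, in 4 of 4 mice (exact permutation p = 0.13 for each). With promoters taken upstream of the start only, it was -19.7 points in exons and -36.7 points in introns. In promoters it was only -0.555 points, and this turned to 0.218 points higher with upstream promoters and to 0.823 points higher with curated transcripts. The difference in bodies was thus larger than that at starts under each definition.

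The levels of Hox bodies and other bodies were also read within classes of CpG density. These classes used the exons and introns defined above, and were not formed again with upstream promoters only. With 5 to 9 CpGs in 200 bp, Hox exons were at 8.66% ± 2.05 (SD, n = 4) and the exons of other genes at 78.2% ± 0.303. Hox introns of this class were at 5.61% ± 0.397, and other introns at 71.9% ± 0.397. With 20 or more CpGs the gap was small, with 4.15% ± 0.598 against 10.6% ± 0.145 in exons and 1.97% ± 0.704 against 4.62% ± 0.150 in introns. Hox bodies were thus lower in every density class, and the gap was larger with 5 to 9 CpGs than with 20 or more.

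Promoters behaved otherwise. Where CpGs were sparse, with 1 to 4 in 200 bp, the 26 members in Hox promoters were at 19.8% ± 1.90 and other promoters at 53.2% ± 0.603 (SD, n = 4). From 15 CpGs on, Hox promoters were the higher: 3.505% ± 0.402 against 1.67% ± 0.0290 with 15 to 19 CpGs, and 2.28% ± 0.207 against 0.636% ± 0.0239 with 20 or more. In the densest class the 1180 Hox members were at 2.55%, 2.23%, 2.05% and 2.29% and the other promoters at 0.668%, 0.635%, 0.610% and 0.630% in the same order of mice. Every mouse was higher at Hox promoters in this class and the ranges did not overlap.

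**Figure D2:**
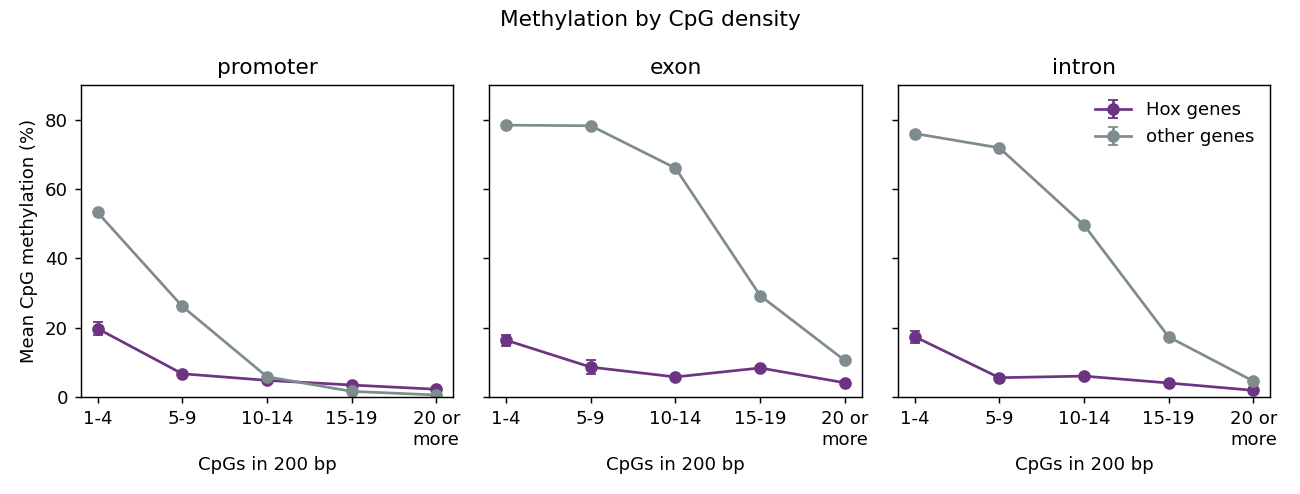
Mean CpG methylation (percent, y axis) against the number of CpGs in the 200 bp around a cytosine (x axis), for promoters, exons and introns of Hox genes and of other genes; points are means over 4 mice with SD. With 5 to 9 CpGs, Hox exons lie at 8.66% and other exons at 78.2%, and the promoter lines cross between 10 and 19 CpGs.

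Distance from a start site showed the same contrast in another way. It was taken to the nearest Hox start for Hox members, and to the nearest start of another gene for cytosines of other genes. Starts of other transcripts inside the clusters were not counted for Hox members. Within 250 bp of a start, Hox members were at 2.94% ± 0.328 (SD, n = 4) and cytosines of other genes at 2.49% ± 0.0310. Between 1 and 2 kb, Hox members were at 6.93% ± 0.432 and other genes at 30.2% ± 0.214. Between 4 and 8 kb, Hox members were at 5.56% ± 0.605 and other genes at 65.6% ± 0.359, of which 54.2% of cytosines were over 80%. The level of other genes rose with each step away from the start, and that of Hox genes did not rise beyond 2 kb.

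**Figure D3:**
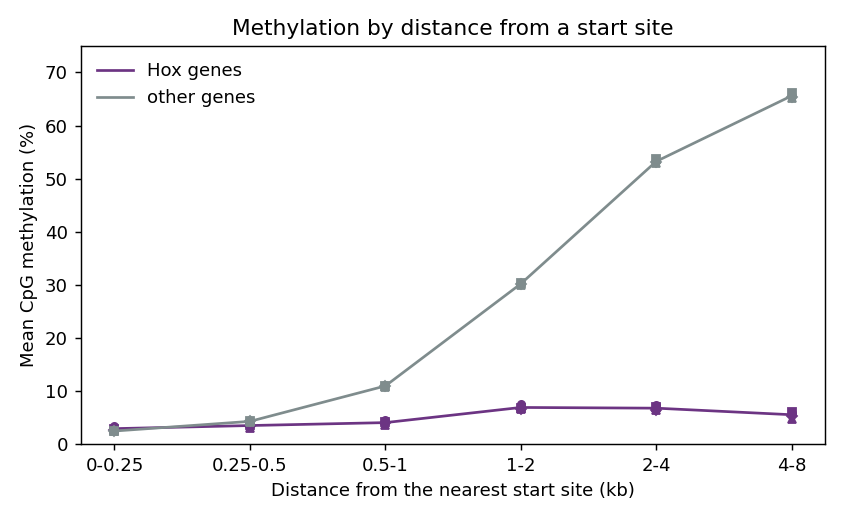
Mean CpG methylation (percent, y axis) by distance from a transcription start (kb, x axis) for Hox members and cytosines of other genes. Distance is to the nearest Hox start for Hox members and to the nearest start of another gene for the others. Lines are means over 4 mice and points are single mice. Beyond 4 kb Hox members lie at 5.56% and other genes at 65.6%.

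Pax and Sox genes, which also encode developmental transcription factors, served for comparison. Exons of 9 Pax genes were at 19.98% ± 0.326 and introns at 17.3% ± 0.341 (SD, n = 4), and the difference of Hox from Pax genes was -13.5 points in exons and -11.3 points in introns, in 4 of 4 mice (exact permutation p = 0.13). With upstream promoters only, Hox minus Pax exons was -4.48 points, and with pooled reads -9.05 points. Promoters of Pax genes were at 2.29% ± 0.0747, and Hox promoters were 1.26 points higher, again in 4 of 4 mice (exact permutation p = 0.13). Hox spacers were 2.91 points above Pax spacers, which held 56 cytosines. Exons of 19 Sox genes were at 18.6% ± 0.220 and their introns at 62.8% ± 0.447. Sox promoters were at 3.05% ± 0.101, and Sox spacers, with 110 cytosines, at 35.9% ± 0.974, above those of Hox. The families were not matched for CpG density. Its median was 18 in Hox exons and 12 in Hox introns, 11 and 15 in those of Pax, and 18.5 and 6 in those of Sox.

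The paralogue number tells where along the axis a Hox gene acts, and members were grouped by it into anterior (1 to 3), central (4 to 8) and posterior (9 to 13) genes. Anterior members were at 6.59% and 6.53% in the Mixed mice and 5.65% and 5.81% in the B6 mice (6.14% ± 0.482, SD, n = 4). Central members were at 5.80%, 5.61%, 4.79% and 5.25% (5.36% ± 0.446), and posterior members at 4.05%, 3.38%, 3.33% and 3.45% (3.55% ± 0.337). Posterior members were the lowest in every mouse, and their values overlapped neither other group.

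Anterior members exceeded posterior ones by 2.59 points, from 2.32 to 3.15, and central members exceeded them by 1.81 points, from 1.45 to 2.23. Anterior members exceeded central ones by 0.783 points. The steps shifted with the cytosines counted: central minus posterior was 1.01 points without flanks and 0.586 with cytosines of a single Hox gene, where anterior minus central was 1.86 and 1.55. Each difference had the same sign in 4 of 4 mice (two-sided exact permutation p = 0.13, adjusted p = 0.13 over 3 pairs). The fall was steepest in Hoxb, from 7.66% in anterior to 6.09% in central and 3.23% in posterior genes. In Hoxa it went from 6.47% and 6.30% to 3.92%, and in Hoxd from 4.13% and 4.06% to 3.31%. The anterior and central groups of a cluster share cytosines. In Hoxa the central members other than the 48 of Hoxa7 also lie in Hoxa3. In Hoxb all 61 members of Hoxb4 lie in Hoxb3 as well, and in Hoxd all 53 of Hoxd4 in Hoxd3. Hoxc, which has no anterior gene, went from 4.28% in central to 3.61% in posterior genes. The posterior groups of the 4 clusters, between 3.23% and 3.92%, lay closer together than the clusters as a whole.

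By single paralogue number, the level did not fall evenly. Paralogues 5, 6 and 3 were the highest, at 7.53% ± 0.521, 6.88% ± 0.708 and 6.72% ± 0.619 (SD, n = 4). These paralogue numbers share cytosines, since all 114 members of Hoxa5 and all 141 of Hoxa6 also lie in Hoxa3. Paralogues 8, 13 and 11 were the lowest, at 2.82% ± 0.327, 3.08% ± 0.431 and 3.14% ± 0.257. The others lay between 3.49% for paralogue 9 and 5.27% for paralogue 4, with paralogue 2 at 3.78%, 12 at 4.13%, 10 at 4.16%, 7 at 4.60% and 1 at 4.82%. Ordered by level, neighbours differed by less than the larger of their SDs, except for the steps from paralogue 10 to 7 and from 4 to 3.

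Of the 39 genes, 10 were under 3%, 14 between 3% and 5%, 12 between 5% and 10%, and 3 over 10%. The median of the Hox genes was 3.91% and that of 14838 other protein-coding genes 15.1%, and 36 Hox genes (92.3%) were under 10% against 39.98% of the others. The 3 genes over 10% were Hoxb1, Hoxb5 and Hoxd4.

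In Hoxa, Hoxa5, which patterns the lung and the anterior trunk, was the highest with 9.52% and 8.997% in the Mixed mice and 7.72% and 9.49% in the B6 mice. Its neighbour Hoxa6 followed at 8.47%, 7.30%, 6.70% and 7.96%. Hoxa13, a gene of the limb ends and genital region at the end of the cluster, was the lowest at 2.51%, 1.98%, 2.12% and 2.50%. The values of Hoxa5 and Hoxa6 lay above those of Hoxa13 in all mice with no overlap. All 114 members of Hoxa5 and all 141 of Hoxa6 lie in Hoxa3 as well.

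In Hoxb, Hoxb1, which acts in the hindbrain, was the highest Hox gene with 18.0% and 16.2% in the Mixed mice and 15.9% and 14.7% in the B6 mice, from only 25 members. Hoxb5 followed at 10.8%, 12.5%, 10.7% and 9.40%. Hoxb9, which patterns the thoracic skeleton, was the lowest at 2.9998%, 2.57%, 1.91% and 2.15%, and Hoxb2, next to Hoxb1 in the cluster, was at 2.48%, 3.15%, 3.10% and 2.71%. Hoxb1 and Hoxb2 therefore differed widely although they are neighbours, and their values did not overlap in any mouse.

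In Hoxc, Hoxc10 was the highest at 8.72% and 5.87% in the Mixed mice and 7.56% and 6.34% in the B6 mice, and Hoxc4 followed with a mean of 5.35% ± 0.556 (SD, n = 4). Hoxc11 was the lowest at 2.33% ± 0.450, followed by Hoxc8, a gene of the thoracic region, at 2.90% ± 0.698. Hoxc10 and Hoxc11 are adjacent posterior genes, and the values of Hoxc10 lay above those of Hoxc11 in all mice.

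In Hoxd, Hoxd4 stood apart at 10.6% and 12.4% in the Mixed mice and 7.91% and 10.3% in the B6 mice, while Hoxd12 followed at 5.10% ± 0.398 (SD, n = 4). The lowest were Hoxd8, at 1.90% ± 0.424 over 153 members, and Hoxd13, which shapes the digits, at 2.09% ± 0.383. The 53 members of Hoxd4 all lie in Hoxd3 as well, whose transcripts span Hoxd4.

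**Figure D4:**
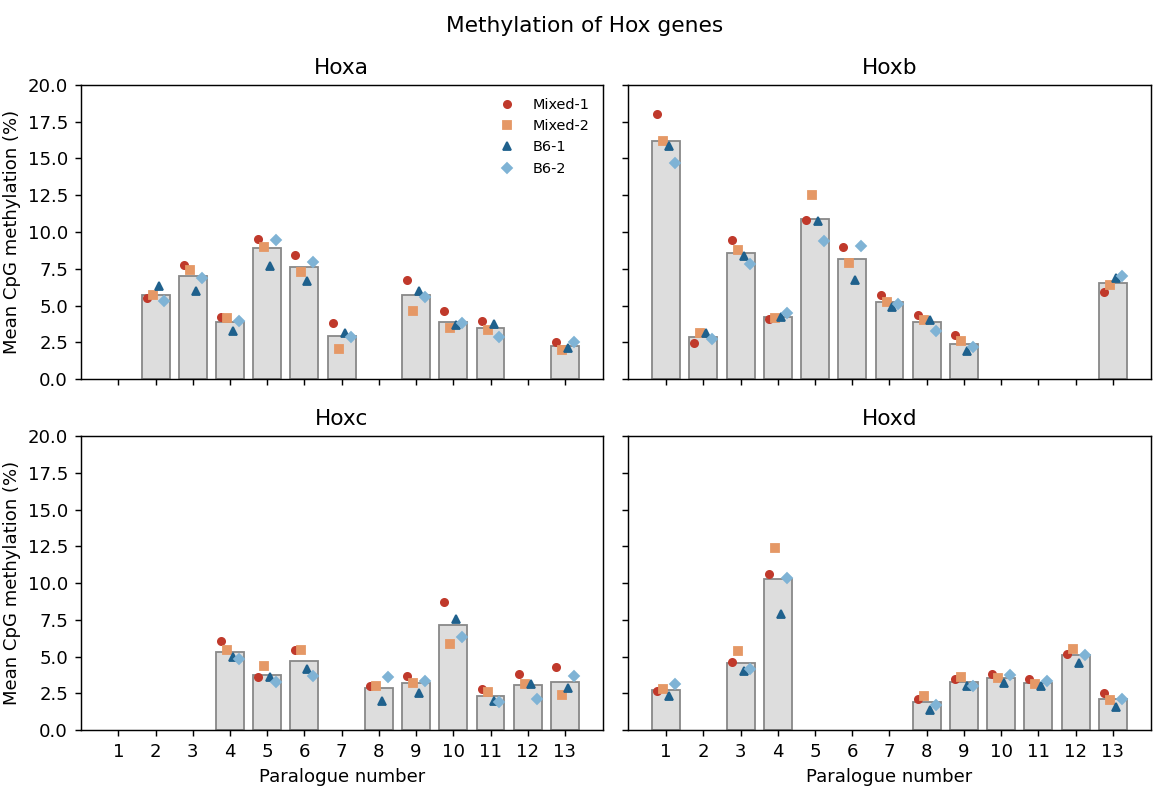
Mean CpG methylation (percent, y axis) of Hox genes by paralogue number (x axis) in the 4 clusters; bars are means over 4 mice and points are single mice. Hoxb1 reaches 16.2%, and Hoxd8 is the lowest at 1.90%.

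Only 5 members exceeded 50% in the mean of the mice. The highest, on the plus strand at position 52199962 of chromosome 6, lay between Hoxa5 and Hoxa4 in the printed window, in an intron of a long Hoxa3 transcript. It was at 86.4% and 80.5% in the Mixed mice and 68.3% and 82.5% in the B6 mice, from 22 to 57 reads. The other 4 members of that window were between 23.7% and 35.8%, so the high level was that of a single CpG among partly methylated ones. The next were a cytosine in an exon of Hoxb1 at 96368145 of chromosome 11 (66.2%), one near Hoxb13 at 96192797 (59.8%), one in an intron of Hoxd3 at 74720195 of chromosome 2 (50.6%) and one at a Hoxb3 promoter at 96306737 of chromosome 11 (50.0%). These 5 had 1 to 4 CpGs in 200 bp.

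No run of 3 or more neighbouring members exceeded 50%, nor 30%. At 20%, a threshold chosen after the values were seen, there were 7 such runs, all in Hoxa and Hoxb. The run with the most members lay in Hoxb3 between 96344234 and 96344600, largely inside the printed coding exon, and its 7 members were at 38.4% and 29.9% in the Mixed mice and 17.4% and 14.4% in the B6 mice. Both Mixed mice were above both B6 mice in this mean, but not at the minus-strand members at 96344564, 96344585 and 96344600. Mixed-2 was there at 16.7%, 21.3% and 23.9%, and B6-2 at 20.3%, 24.2% and 24.2%. The coverage of the plus-strand members of this run was 10 to 11 reads in Mixed-1, and none of the run's members passed the strain test described below. The run between Hoxb7 and Hoxb6 had 6 members at 34.6%, 27.6%, 28.5% and 38.1%, and the one between Hoxa5 and Hoxa4 had 5 at 39.9%, 41.9%, 34.6% and 42.1%, with the strains overlapping in both.

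**Figure D5:**
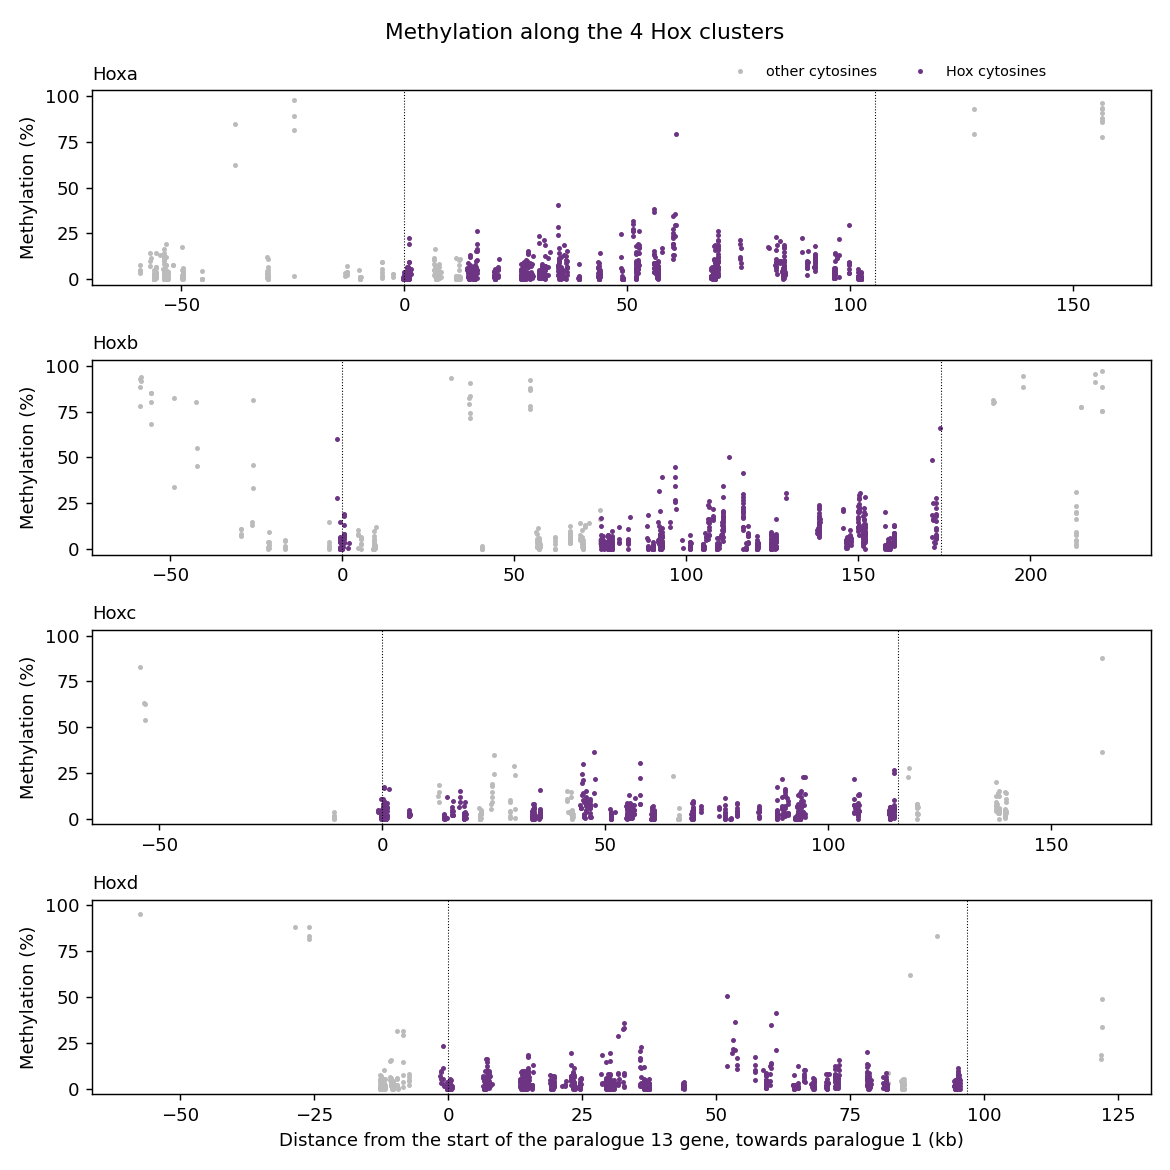
Methylation (percent, mean of 4 mice, y axis) of single cytosines along each cluster against the distance (kb, x axis) from the start of the paralogue 13 gene; dotted lines mark that start and the far end of the paralogue 1 or 4 gene, and members are coloured. Members stay mostly under 20%, and cytosines over 80% appear outside the clusters, in the gap of Hoxb and once in Hoxd.

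The low level went on between the genes. Within the clusters but more than 2 kb from any Hox gene, cytosines were at 3.13% ± 0.516 in Hoxa (91 cytosines), 5.61% ± 0.598 in Hoxc (83) and 4.93% ± 0.363 in Hoxd (45; SD, n = 4). In Hoxb the 139 such cytosines were at 10.9% ± 0.619, and all lay in the 70719 bp between Hoxb13 and Hoxb9. Of these, 126 were under 20% and 12 over 50%, so this gap mixed low and high cytosines. In Hoxd 2 of 45 were over 50%.

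Outside the ends, the clusters differed in how far the low level reached. At 2 to 22 kb from the ends, the level was 2.84% in Hoxa (28 cytosines), 5.82% in Hoxc (30) and 3.21% in Hoxd (135), and 14.8% in Hoxb (20). At 22 to 42 kb it was 19.97% around Hoxa (33 cytosines, 7 of them over 50%), 28.5% around Hoxb (25), 5.53% around Hoxc (33) and 57.3% around Hoxd (8, of which 4 were over 80%). The low level around Hoxa and Hoxd was thus interrupted there. At 42 to 62 kb it was 79.2% ± 2.59 around Hoxb (20 cytosines), 64.6% ± 2.58 around Hoxc (6), 7.78% ± 0.242 around Hoxa (160) and 2.98% ± 0.190 around Hoxd (34; SD, n = 4). These bins hold few cytosines and other genes with CpG-dense starts. The 135 cytosines at 2 to 22 kb from Hoxd were those of Evx2, beside Hoxd13.

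The strand of a CpG made little difference. Both strands were measured at 816 CpGs, with a median absolute difference of 1.11 points between the strands. The 1 CpG that differed by more than 20 points was that of the Hoxb7 cytosine described below. It was at 39.1% on the minus strand and 7.51% on the plus strand in the mean of the mice.

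The last comparison asked whether the strains differed at the Hox clusters. The means of the Mixed mice were above those of the B6 mice by 0.549 points in Hoxa, 0.694 in Hoxb, 0.577 in Hoxc and 0.497 in Hoxd, and in each cluster both Mixed mice lay above both B6 mice. For each cluster, p was 0.33 in a two-sided exact permutation test (adjusted p = 0.33 over the 4), the smallest that 2 against 2 mice allow. The same difference was 0.0625 points at the promoters of other genes and 0.203 points over all common cytosines.

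The difference went with coverage. It was 1.37 points at the 482 members whose lowest coverage in any mouse was 10 to 19 reads, 0.549 points at the 1276 members with 20 to 39, and 0.383 points at the 1903 members with 40 or more. With a minimum of 20 reads, all 4 clusters kept a positive difference, from 0.361 in Hoxb to 0.550 in Hoxa. With the reads of a cluster pooled, the differences were 0.608, 0.607, 0.180 and 0.281 points in Hoxa, Hoxb, Hoxc and Hoxd, and in Hoxc the Mixed and B6 mice then overlapped. Leaving out 1 mouse moved the difference in Hoxa from 0.201 to 0.897 points and that in Hoxc from 0.214 to 0.940. The part of depth in the result was not tested.

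For single cytosines, methylated and unmethylated reads were compared in a logistic model with overdispersion moderated by limma, and a cytosine was called at an adjusted p under 0.01 and a difference of 25 points. No Hox member was called, against 84 of 1276684 cytosines (0.00658%) in the whole table. A limma fit on log2 ratios called 0 cytosines in Hox genes or elsewhere. At an unadjusted p under 0.05 there were 104 members (2.84%), against 2.07% of all cytosines. Both Mixed mice were above both B6 mice at 579 members (15.8%, against 8.95% of all cytosines) and below them at 370 (10.1%, against 7.63%).

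The member with the largest strain difference lay on the minus strand at 96287138 of chromosome 11, in the Hoxb7 window printed above, where it is the second CpG of the capital pair CGCG downstream of a coding exon. It was at 60% in Mixed-1 (95% Wilson interval 31.3% to 83.2%), 86.7% in Mixed-2 (62.1% to 96.3%), 4.65% in B6-1 and 5.16% in B6-2. Both Mixed values were far above both B6 values. The adjusted p was 0.0263 in the limma-moderated model, so the cytosine missed the threshold of 0.01, and it passed with the replicate number as a block (adjusted p = 0.00654) and with limma's robust moderation (adjusted p = 0.00380). With a coverage ceiling, merged strands or limma on log2 ratios, no Hox cytosine was called even at an adjusted p under 0.05. A minimum of 20 reads left the Hoxb7 cytosine out.

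Its coverage moved with the strain as well. It had 10 and 15 reads in the Mixed mice and 86 and 97 in the B6 mice, while the cytosine 2 bases away on the same strand had 76, 96, 90 and 96. The fall in coverage thus concerned this base in the Mixed mice and not its neighbour. The neighbour was at 3.95%, 3.12%, 2.22% and 4.17%, and the 61 other members within 300 bp had means between 2.37% and 3.97% in the 4 mice. The plus strand of the same CpG, at 96287137, was at 6.42%, 10.1%, 7.50% and 6.03%, from 109 to 120 reads. The high level in the Mixed mice was thus seen on the minus strand only. What lowered the coverage was not tested.

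The same kind of fall was looked for at all cytosines, a search made after this one was seen. A cytosine counted when its coverage was under 0.3 times that of the nearest cytosine of its strand, at most 10 bp away, in both Mixed mice and over 0.7 times in both B6 mice. This held at 5 of 2620 members with such a neighbour (0.191%) and at 585 of 792218 common cytosines (0.0738%), and the reverse, low in B6, at 0 members and at 70 common cytosines. Besides the Hoxb7 cytosine, the members were at 103014299 of chromosome 15 in Hoxc5 (0% in all mice), at 74746379 of chromosome 2 in Hoxd3 (28.6%, 36.8%, 11.1% and 2.63%), at 74691775 in Hoxd10 (7.14%, 31.2%, 2.22% and 5.06%) and at 74704923 in Hoxd8 (0% in 3 mice and 2.02% in B6-2). In 3 of these 5 the Mixed mice were the higher.

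The next largest strain differences were at 96344530 and 96344508 of chromosome 11 in the printed Hoxb3 exon, at 103035890 of chromosome 15 in Hoxc4 and at 74704158 of chromosome 2 in Hoxd8, with differences of 39.9, 38.7, 39.9 and 31.6 points and an adjusted p of 1 each in the limma-moderated model. The Hoxc4 cytosine was at 41.7% and 52.0% in the Mixed mice and 4.76% and 9.09% in the B6 mice, from 12 to 25 reads. Among the 10 members with the largest differences, 9 were higher in the Mixed mice, and all 10 had fewer than 20 reads in at least 1 Mixed mouse.

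Summed over whole genes, 0 of 39 Hox genes passed an adjusted p of 0.05 in the limma-moderated model, against 1050 of 22912 genes (4.58%). At an unadjusted p under 0.05 there were 2, Hoxb6 and Hoxa3, against 21.1% of all genes. Hoxb6 was 2.57 points higher in the Mixed mice on pooled reads (adjusted p = 0.160), while its site means of 8.96% and 7.90% in the Mixed mice and 6.75% and 9.08% in the B6 mice overlapped. On pooled reads Hoxa3 was 1.02 points higher (adjusted p = 0.183).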

How the data were processed

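ERRBS libraries of whole-liver DNA from 4 mice were used. The authors mapped reads to mm10, with BSMAP per the study's methods and with Bismark and SAMtools per the submitters' processing notes, and called CpG methylation per strand. In the deposited files the coverage is a read count per cytosine, at least 10 and not normalized. The authors also deposited the percent of C and the percent of T among those reads. Reads with a further base were left in the coverage by the authors and occurred at 0.514% to 0.797% of sites.

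Methylated reads were taken as percent times coverage, rounded. Sites were placed on GRCm38 with RefSeq annotation. Members were assigned in the order promoter, exon, intron, spacer, a site in several Hox genes counting once in each group, and levels are unweighted means of site percentages. Within-mouse differences were tested by sign flips over mice, and strains by permutation of 2 against 2 mice. The logistic model was fitted to all common sites and, on summed reads, to all RefSeq genes with at least 5 common cytosines; its overdispersion was moderated with limma 3.58.1 (R 4.3.3, package data.table, version 1.17.8) from sites of 20% to 80%, kept at 1 or above, and adjusted by the Benjamini-Hochberg method. The model was tested on simulated data. Python 3.11.15, numpy 2.4.6, scipy 1.17.1, pandas 2.3.3 and matplotlib 3.10.9 were used.

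The genes named were the 2 highest and 2 lowest of each cluster with at least 10 members, and the cytosines named were the 5 with the largest strain difference and those over 50%. A gene of this choice and one of the cofactor list are not reported here. The members, lists and tests were chosen with earlier results of these data known. Labels give the numbers 1 and 2 to the mice of either strain and state no pairing. The mice of a strain are separate animals.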

Additional observations from a re-analysis of the deposited data

Results flagged for a closer look

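Hox cytosines with at least 10 reads in only 1 to 3 mice were left out of the comparisons, and they numbered 659. Their mean level was 5.44%, and 3 of them (0.455%) were over 50%, so a few methylated cytosines lie outside the common set. B6-1 held 602 of the 659, B6-2 539, Mixed-1 173 and Mixed-2 68, and 319 were in both B6 mice and in neither Mixed mouse. All cytosines of the series with reads in 1 to 3 mice had a mean of 50.8%.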

How the results depend on the processing

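The alternatives were a minimum of 20 reads, a coverage ceiling, merged strands, pooled reads, all sites of each mouse, other flanks, promoters upstream of the start only, curated transcripts, cytosines of 1 Hox gene, leaving out each mouse and, for strain, other models. The differences between clusters, between position groups, between first and last exons and against Pax genes kept their direction under all of them, but not their size. Moves of over 1.5 times stand beside the results, except these: exon minus spacer was 1.08 with 20 reads, 0.960 with pooled reads, 1.05 with 5 kb flanks and 1.72 with cytosines of 1 Hox gene, where exon minus intron was 1.36. Intron minus spacer rose to 0.576 with 20 reads, its highest value. Hox minus other promoters was -0.148 with 20 reads, -0.193 with pooled reads, -0.974 with merged strands, -0.940 with all sites of each mouse and -0.963 with cytosines of 1 Hox gene. Hox minus Pax spacers was 1.87 with 5 kb flanks and 1.92 with cytosines of 1 Hox gene. With upstream promoters, exon minus intron became -1.25 points, exon minus spacer -1.46, intron minus spacer -0.214 and Hox minus other promoters 0.218. With curated transcripts, exon minus intron became -0.484, exon minus spacer -0.195 and Hox minus other promoters 0.823. Intron minus spacer ranged from -0.110 (without B6-1) to 0.282 when 1 mouse was left out. The cause was not tested, beyond the change in which cytosines count as promoter. The Hoxb7 cytosine was the 1 Hox cytosine called with the replicate block, with limma's robust moderation (added after seeing the data), at an adjusted p under 0.05, and at that threshold with 10 points. With a coverage ceiling, merged strands or limma on log2 ratios, no Hox cytosine was called at any of these thresholds. A minimum of 20 reads left the Hoxb7 cytosine out. Fits that left out a mouse keep only 1 mouse in a strain, so calls in them are not given for this cytosine. Hox genes had 0 calls throughout. The numbers 1 and 2 share no stated source, and deviations of same-numbered mice correlated by 0.0449 over the members. With the replicate block the strain differences stayed 0.549, 0.694, 0.577 and 0.497 points, which holds by construction (exact permutation p = 0.5). Leaving out 1 mouse moved them between 0.201 and 0.897 in Hoxa, 0.567 and 0.821 in Hoxb, 0.214 and 0.940 in Hoxc, and 0.350 and 0.644 in Hoxd. With no flank there was no spacer to compare. At 10 reads, 1 read is worth 10 points.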

Other observations

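The list of 14 genes that work with Hox proteins or control them had 0 genes that passed the strain test in either direction (adjusted p under 0.05 in the limma-moderated model, against 4.58% of all genes). In the same limma-moderated model, Meis3 (adjusted p = 0.111) and Pbx4 (adjusted p = 0.0728) were the genes with an unadjusted p under 0.05. The genes spanned a wide range of levels, with a median of 14.5%. Cdx2, which activates Hox genes in the posterior embryo, was at 1.89% ± 0.242 (SD, n = 4). Evx2 and Evx1, homeobox genes at the ends of the Hoxd and Hoxa clusters, were at 3.21% ± 0.111 and 3.63% ± 0.304. The Evx2 cytosines are the same as those given above for the nearest bin outside Hoxd. Pbx3 was at 4.23% ± 0.154 and Cdx4 at 8.41% ± 5.01. Other cofactors, which bind DNA together with Hox proteins, were higher, with Pknox1 at 11.5%, Meis3 at 13.3%, Meis2 at 15.6%, Meis1 at 16.2%, Pknox2 at 22.3%, Pbx2 at 24.03% and Pbx4 at 38.6%. The regulator Cdx1 was at 16.9% ± 0.324. The levels of the genes at the cluster ends thus lay in the range of the Hox genes, and those of most cofactors above it.

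In the gap between Hoxb13 and Hoxb9, the 12 cytosines over 50% fell into 3 places. A single cytosine at 96226046 of chromosome 11 was at 93.4%. A group of 6 between 96231310 and 96231412 was between 71.3% and 90.7%, and a group of 5 between 96248794 and 96248830 was between 76.5% and 92.0%. The remaining cytosines of the gap were low, with 126 of 139 under 20%.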
